A study of Mus musculus with 14 samples.

Results

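CTCF binding in wild-type mouse embryonic stem cells (mESCs) was compared with that in the embryoid bodies (EBs) grown from them. The CTCF peak lists of 2 WT libraries at day 0 and 2 WT libraries at day 4 were merged wherever peaks overlapped by at least 1 bp, which gave 84859 sites out of 86652 in all 8 CTCF lists of the series. A site was called lost when both day 0 lists and no day 4 list held it (2926 sites, 3.45% of all), gained when both day 4 lists and no day 0 list held it (2105 sites, 2.48%), and kept when all 4 lists held it (45535 sites, 53.7%). The other 34293 sites had a mixed pattern of calls and were not assigned a direction. These 3 classes were set by the peak calls themselves, so their sizes are a description and not a test.

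The cells were of the mESC line E14Tg2A. At day 0 they grew on inactivated mouse embryo fibroblast feeders in serum medium with LIF and the 2i inhibitors CHIR99021 and PD0325901, and at day 4 they were EBs made in hanging drops in serum medium without LIF. WT cells carried unedited CTCF, and the CTCF-K20R line carried lysine 20 replaced by arginine through CRISPR/Cas9 editing followed by drug selection of colonies. Both genotypes had 2 CTCF libraries per day, and WT day 4 EBs had 1 library of histone H3 acetylated at lysine 27 (H3K27ac), which marks active enhancers and promoters. How many clones made up the K20R line, whether feeders were removed before chromatin was taken, and whether the replicates were separate cultures were not given in the sources used here. Every p-value across libraries therefore measures the spread between these libraries only.

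CTCF is a zinc finger protein that binds a long, well conserved DNA motif. It anchors chromatin loops where cohesin is held up, and it insulates genes from enhancers. Some rodent short interspersed repeats carry a copy of the CTCF motif, so copies of such repeats are scattered through the mouse genome as CTCF sites. Binding to some motif variants that hold a CpG is known to be sensitive to DNA methylation, depending on its position. Cells kept in 2i hold little DNA methylation and regain it when they leave the naive state.

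The labels were compared with marker genes through the WT day 4 H3K27ac peaks within 3 kb of start sites. Of the 5 mesoderm markers, T and Eomes had 1 H3K27ac peak each and Mixl1, Mesp1 and Kdr had none. The pluripotency markers Pou5f1, Sox2 and Zfp42 had 1 each and Nanog had 2. Sox17, Foxa2 and Afp of endoderm and Sox1 and Pax6 of the neural lineage had none, whereas Nes had 2. Of the 5 fibroblast markers, Thy1 had 1 and Col1a1, Col1a2, Col3a1 and Prrx1 had none. At day 0 no such mark was measured, so the day 0 label was not compared with markers.

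Lost and gained sites differed in the sequence around their CTCF match, and these sequences are shown first. A 19-base CTCF matrix was learned from the strongest peaks of the 4 WT lists, with the consensus CCAGCGCCCCCTGGTGGCC, and the best match on either strand within 100 bases of each site's summit was kept when it scored above a threshold passed by 5% of sequences shifted by 1 kb. Among 28820 matches that lie in repeat-masked bases, 3 groups were formed from the 20 bases on each side by k-means clustering, with no use of the day or of the peak strength. Their consensus sequences, with the 19 matched bases in capitals and n where a position carried no more than 0.3 bits of information, are given with that of the 37447 unmasked matches.
Group 1: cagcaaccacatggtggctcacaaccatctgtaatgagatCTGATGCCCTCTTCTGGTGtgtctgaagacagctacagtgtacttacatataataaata
Group 2: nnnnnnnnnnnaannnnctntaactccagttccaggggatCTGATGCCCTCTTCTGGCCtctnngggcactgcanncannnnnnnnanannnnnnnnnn
Group 3: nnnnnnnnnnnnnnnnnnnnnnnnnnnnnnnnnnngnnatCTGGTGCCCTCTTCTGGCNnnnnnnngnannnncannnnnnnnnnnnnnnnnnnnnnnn
Unmasked: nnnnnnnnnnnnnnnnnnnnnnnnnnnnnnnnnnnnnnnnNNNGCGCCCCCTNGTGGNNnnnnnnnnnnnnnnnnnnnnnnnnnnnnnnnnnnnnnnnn
Group 1 (11311 sites) had a consensus base at all 99 positions, and the identity of its members to that consensus is given below. Group 2 (9895 sites) shared 60 of the 99 positions, and group 3 (7614 sites) shared 25. The unmasked matches had the core CGCCCCCT in common and no shared flank. No repeat annotation beyond the masking of the reference was used, so the groups are not named as repeat families.

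Lost sites near 5 pluripotency genes and near Nodal, a gene of the primitive streak, gave examples of group 1. The sequences below are of the reference (RefSeq GRCm38.p6, the build the files call mm10) and are written along the strand of the match, named by the gene whose start lay within 50 kb.
Esrrb, chr12:86455774-86455872, minus strand, lost: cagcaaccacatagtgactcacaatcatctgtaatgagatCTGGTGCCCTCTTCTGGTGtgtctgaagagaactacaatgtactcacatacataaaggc
Prdm14, chr1:13079661-13079759, plus strand, lost: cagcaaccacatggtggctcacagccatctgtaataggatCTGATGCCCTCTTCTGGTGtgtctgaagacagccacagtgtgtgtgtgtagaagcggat
Dppa5a, chr9:78373642-78373740, minus strand, lost: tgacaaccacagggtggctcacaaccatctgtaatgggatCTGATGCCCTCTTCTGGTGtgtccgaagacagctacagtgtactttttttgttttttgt
Sox2, chr3:34688215-34688313, plus strand, lost: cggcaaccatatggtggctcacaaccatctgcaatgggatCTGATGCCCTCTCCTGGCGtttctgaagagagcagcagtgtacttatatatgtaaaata
Pou5f1, chr17:35496307-35496405, minus strand, lost: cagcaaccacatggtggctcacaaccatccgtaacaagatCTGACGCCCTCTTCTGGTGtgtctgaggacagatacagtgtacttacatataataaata
Nodal, chr10:61421720-61421818, plus strand, lost: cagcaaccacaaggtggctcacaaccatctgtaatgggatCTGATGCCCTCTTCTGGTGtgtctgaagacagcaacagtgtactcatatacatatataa
These 6 lost sites were 85.9%, 82.8%, 81.8%, 85.9%, 93.9% and 88.9% identical to the group 1 consensus, in the order shown. Their genes lie on 6 different chromosomes, and the Sox2 and Pou5f1 copies held a CpG in the match whereas the others did not.

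Group 2 is shown by the lost site near Zfp988 and by a kept site near Socs3 that ranked lower at day 4, and the unmasked class by 4 gained sites and by kept sites near Klf4 and Pou5f1 that ranked higher and lower at day 4.
Zfp988, chr4:147340371-147340469, plus strand, lost: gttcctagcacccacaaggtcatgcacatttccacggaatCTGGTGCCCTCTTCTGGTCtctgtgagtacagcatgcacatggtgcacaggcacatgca
Socs3, chr11:118018477-118018575, plus strand, re-ranked down: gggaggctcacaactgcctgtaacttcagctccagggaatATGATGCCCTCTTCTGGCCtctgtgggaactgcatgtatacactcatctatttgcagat
Fcho1, chr8:71751491-71751589, minus strand, gained: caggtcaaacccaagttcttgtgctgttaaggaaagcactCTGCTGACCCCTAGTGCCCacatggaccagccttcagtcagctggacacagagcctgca
Smarca2, chr19:26445473-26445571, plus strand, gained: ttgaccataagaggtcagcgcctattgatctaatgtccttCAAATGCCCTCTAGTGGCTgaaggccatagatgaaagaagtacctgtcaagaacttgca
Kcna10, chr3:107160196-107160294, plus strand, gained: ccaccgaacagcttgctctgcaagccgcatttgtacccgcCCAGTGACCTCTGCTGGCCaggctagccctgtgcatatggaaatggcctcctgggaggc
Foxf1, chr8:121090913-121091011, plus strand, gained: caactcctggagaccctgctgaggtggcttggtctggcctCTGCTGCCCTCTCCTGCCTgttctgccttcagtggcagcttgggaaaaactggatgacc
Klf4, chr4:55530405-55530503, plus strand, re-ranked up: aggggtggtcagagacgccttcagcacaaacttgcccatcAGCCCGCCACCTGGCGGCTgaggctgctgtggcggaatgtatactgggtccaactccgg
Pou5f1, chr17:35534518-35534616, plus strand, re-ranked down: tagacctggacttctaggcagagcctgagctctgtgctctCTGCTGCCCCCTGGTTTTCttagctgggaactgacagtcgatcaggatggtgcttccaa
These 4 gained matches were chosen after their values were seen and hold no CpG, whereas other strong gained sites, near Syt8 and 4930544D05Rik, do, as does the Klf4 match.

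The day 0 libraries differed from each other more than the day 4 libraries did. The WT lists held 77657 and 52698 peaks at day 0 and 61088 and 61436 at day 4, and the mean difference of -3915.5 peaks did not differ beyond the spread between replicates (two-sided exact permutation test, p = 1). Day 0 replicate 1 alone held 14613 sites, 17.2% of the 84859, whereas 918, 1929 and 2069 sites were found only in day 0 replicate 2, day 4 replicate 1 and day 4 replicate 2. The share of sites held by both lists of a pair was 0.647 at day 0 and 0.832 at day 4. Over the kept sites, fold enrichment was correlated across sites with a Spearman rho of 0.877 between the day 0 replicates, 0.939 between the day 4 replicates and 0.72 to 0.73 between days. Without day 0 replicate 1 the peak number at day 4 was higher than at day 0, by 8564. The lost and gained calls depend on this uneven pair, and values without each library are given with the results that it changed.

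Lost and gained sites were mostly weak peaks. Strength was measured as the fold enrichment that MACS2 gave a peak over its local background, ranked as a percentile within the peak's own list. In day 0 replicate 1, the lost sites ran from percentile 0.139 to 88.8 with a median of 32.2, and in day 0 replicate 2 from 0.038 to 82.9 with a median of 13.3. In the day 4 lists, the gained sites ran from 0.0295 to 82.1 (median 15.2) in replicate 1 and from 0.0366 to 68.2 (median 17.0) in replicate 2. Thus the typical lost or gained site lay in the lower part of every list that held it. In chromatin from whole cultures, binding absent from all cells and binding absent from a share of cells cannot be told apart. The median fold enrichment of lost sites was 8.06 and 5.55 in the day 0 replicates and that of gained sites 5.70 and 5.81 in the day 4 replicates, against 22.4, 13.0, 16.5 and 16.6 for kept sites in the 4 lists.

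**Figure D1:**
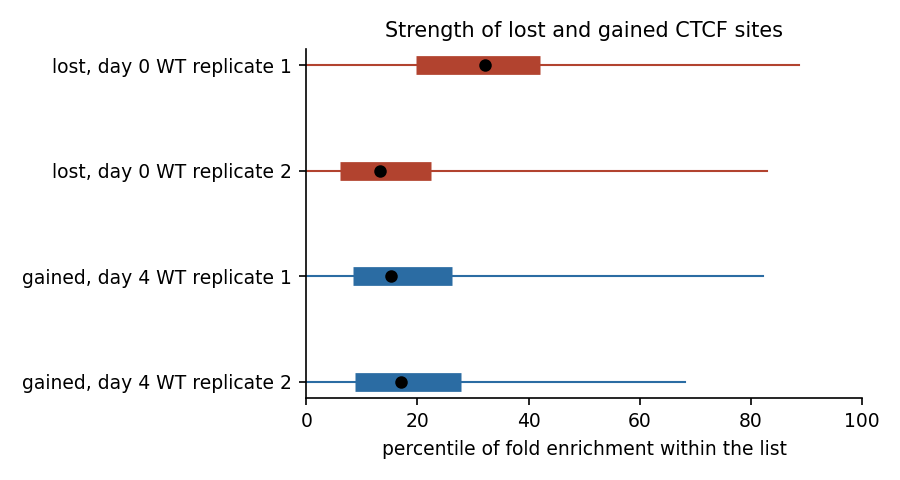
Percentile of fold enrichment (x axis, from the weakest to the strongest peak of a list) of the 2926 lost sites in the 2 day 0 WT lists and of the 2105 gained sites in the 2 day 4 WT lists. Points are medians, bars span the quartiles and lines the whole range; all 4 medians lie between 13.3 and 32.2.

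At or above percentile 50 in both lists that held them were 25 lost and 13 gained sites. A further 2479 sites were in both day 0 lists and 1 day 4 list, and 7592 were in both day 4 lists and 1 day 0 list, of which 7408 were missing only from day 0 replicate 2. These sites had a median mean percentile of 27.5 and 22.9, next to 22.5 and 16.9 for the lost and the gained sites. Sites held by a single list, given above, were also 1 call from a class, and their strength was not compared. Without day 0 replicate 2 the lost sites numbered 17550, and without day 0 replicate 1 the gained sites numbered 9572.

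The K20R libraries were not used to choose the sites and gave an independent reading of each class. At the WT lost sites, 46.2% and 45.7% had a peak in the K20R day 0 lists and 6.60% and 15.99% in the K20R day 4 lists. The mean was 46.0% ± 0.387 at day 0 and 11.3% ± 6.65 at day 4 (SD, n = 2 libraries a day), a difference of -34.7 percentage points, and the days did not overlap. Without WT day 0 replicate 2 the difference was -13.2 points. The exact permutation test gave p = 0.333, the smallest that 2 against 2 libraries allow. Kept sites had 93.3% and 93.2% at day 0 and 83.4% and 90.1% at day 4, so the K20R day 4 lists, which were also shorter (41360 and 47463 peaks, against 52076 and 51905 at day 0), held fewer of them as well. Kept sites were stronger, with median percentiles of 70.6 and 56.5 in the WT day 0 lists, against 32.2 and 13.3 for lost sites. K20R calls at kept sites of like strength were not counted, so the part of strength in this difference was not tested. Of the lost sites, 644 (22.0%) were also in both K20R day 0 lists and no K20R day 4 list, against 4.93% of all 84859 sites, and 1150 (39.3%) were in no K20R list.

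**Figure D2:**
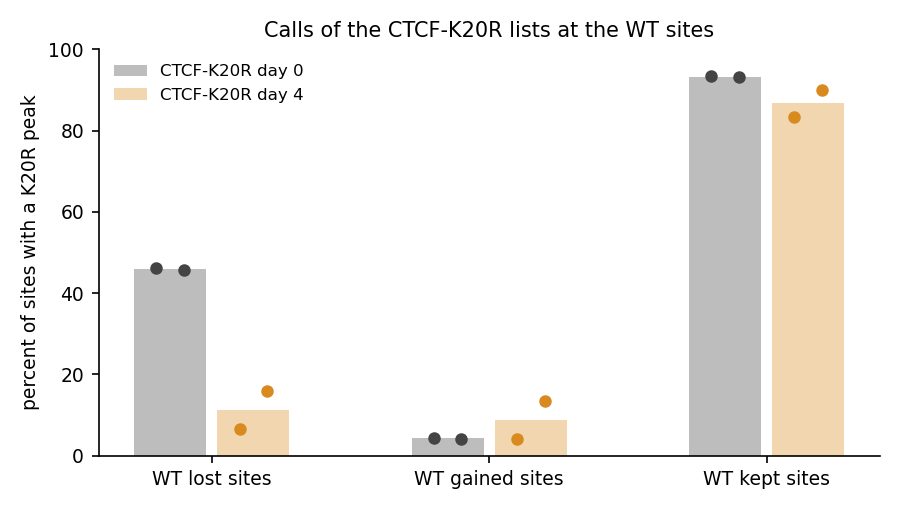
Percent of the WT lost (n = 2926), gained (n = 2105) and kept (n = 45535) sites that held a CTCF-K20R peak. Bars are means of 2 libraries and points are single libraries at day 0 (grey) and day 4 (orange); at lost sites both day 4 libraries lie below both day 0 libraries.

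Gained sites were seldom called in K20R cells. At day 0, 4.47% and 4.04% of them had a K20R peak, and at day 4, 4.13% and 13.4% did. The difference of 4.51 percentage points lay within the spread between the day 4 libraries (exact permutation test, p = 0.667), and it was -5.77 without WT day 0 replicate 1 and -0.119 without K20R day 4 replicate 2. Over all gained sites a rise was thus not detectable in the K20R libraries, whose day 4 lists were also the shorter ones. At gained sites with an unmasked match, the K20R shares were 4.20% and 3.66% at day 0 and 4.42% and 15.4% at day 4. There the days did not overlap (exact permutation test, p = 0.333, the smallest possible). With a masked match they were 6.33% and 5.72% at day 0 and 2.41% and 8.43% at day 4. Only 36 gained sites (1.71%) were also in both K20R day 4 lists and no K20R day 0 list, against 0.54% of all sites, and 1688 (80.2%) were in no K20R list. Of the 25 strong lost sites, 24 were in both K20R day 0 lists, 11 in no K20R day 4 list and 9 in both K20R day 4 lists, and 10 were lost by the same rule in K20R. Of the 13 strong gained sites, 12 were in no K20R day 0 list and 5 in both K20R day 4 lists, and 4 were gained by the same rule in K20R.

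A CTCF match was present in 66.9% of lost sites (Wilson 95% interval 65.2 to 68.6), 59.9% of gained sites and 87.9% of kept sites. Intervals over sites cover counting error only, since the sites of a list share their library. Because weak peaks hold fewer matches, kept sites were also weighted to the strength deciles of the lost or the gained sites, which gave 74.7% for the strength of lost sites and 77.7% for that of gained sites. Both shares thus lay below those of kept sites of like strength. When the threshold was raised so that 1% of shifted sequences passed, the motif was found in 27.5% of lost, 16.2% of gained and 55.9% of kept sites. Among the lost and gained sites without a match, the peak calls rest on no CTCF sequence that this matrix recognised.

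The matches of lost sites lay mostly in repeats and those of gained sites mostly outside them. Of the 1957 lost sites with a match, 1242 (63.5%, 61.3 to 65.6) had it in repeat-masked bases, against 39.5% of kept sites of the same strength. Of the 1260 gained sites with a match, 332 (26.3%, 24.0 to 28.9) had it there, against 56.1% of kept sites of the same strength. Group 1, shown above, made up 31.1% of lost matches, 9.05% of gained matches and 4.48% of kept matches. Kept matches at the strength of lost and of gained sites gave 13.6% and 16.8%. Group 2 made up 17.8%, 4.37% and 17.3%, and group 3 made up 14.5%, 12.9% and 9.99%. The copies of group 1 at lost sites were a median 88.9% identical to the consensus, and those at gained and at kept sites were 87.9% identical.

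**Figure D3:**
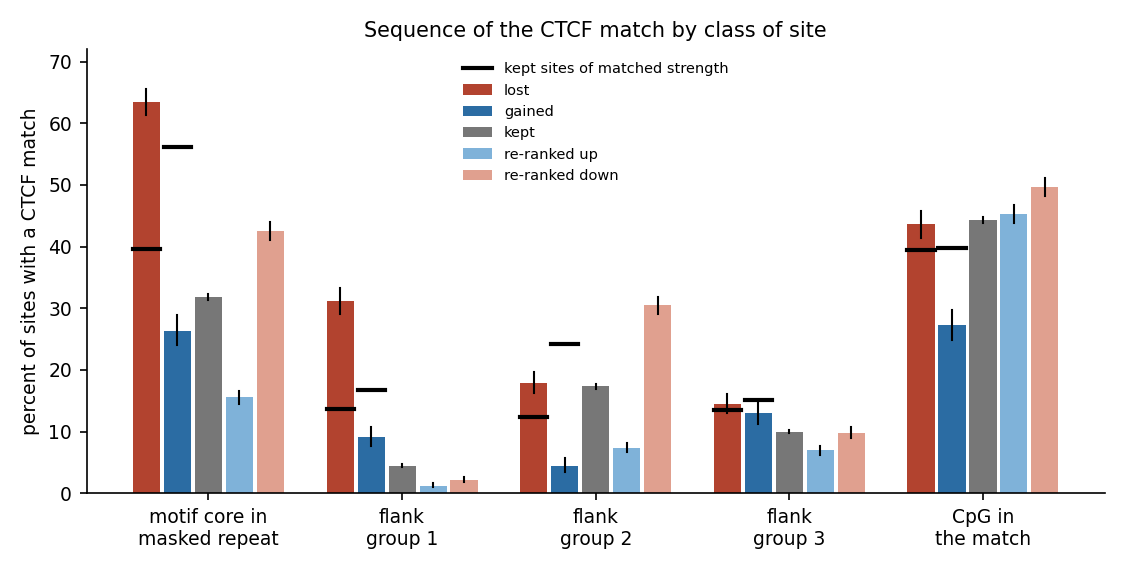
Percent of the sites with a CTCF match that had it in masked repeat, in flank group 1, 2 or 3, or with a CpG in the 19 bases, for lost, gained, kept and re-ranked sites. Error bars are Wilson 95% intervals and black lines are kept sites weighted to the strength of the lost or gained sites; 63.5% of lost and 26.3% of gained matches were masked.

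Read from the sequence side, 4.31% of the sites with a masked match were lost and 1.15% were gained, whereas of the unmasked matches 1.91% were lost and 2.48% were gained. Of the 18592 sites without a match, 5.21% were lost and 4.54% were gained, so a high lost share was not particular to repeats. Group 1 stood apart in another way. Of its 11311 sites 609 (5.38%) were lost, 114 were gained and 15.9% were kept, and 44.9% were called in day 0 replicate 1 alone, against 6.29% of unmasked matches. Calls at these copies were thus often made in 1 library only. Without day 0 replicate 1 the masked share was 58.9% of lost and 45.6% of gained matches, and the distance of gained sites from kept sites of like strength shrank from -29.7 to -7.23 percentage points.

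List length was therefore equalised to ask whether repeats lost ground at day 4 when each library contributed the same number of peaks. In the 41360 strongest peaks of each of the 8 lists, masked matches made up 29.0% and 27.3% of the sites in WT day 0 lists and 25.1% and 25.2% in WT day 4 lists. In K20R cells the shares were 29.2% and 29.2% at day 0 and 29.0% and 27.3% at day 4. Both K20R day 4 values lay below both day 0 values, as in WT, and the exact permutation test within genotype gave p = 0.0556, the smallest that its 36 arrangements allow. Group 2 carried the difference, with 16.4% and 16.1% in WT day 0 lists, 14.0% and 14.0% in WT day 4 lists, 16.8% and 16.8% in K20R day 0 lists and 16.03% and 15.7% in K20R day 4 lists (exact permutation test, p = 0.0556). Group 1 gave 3.78%, 2.78%, 2.81% and 2.80% in the WT lists and 3.79%, 3.74%, 4.48% and 3.26% in the K20R lists (exact permutation test, p = 0.667), so its share of whole lists did not separate the days at equal length. Among lost sites with a match, the group 1 share was 17.5 percentage points above that of kept sites of like strength, and 14.2 points above it with WT lists of equal length. The authors discarded reads of low mapping quality, which bears on repeated sequence, and its part in these shares was not tested.

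A CpG within the match was found at 43.6% of lost, 27.2% of gained and 44.3% of kept sites, with 39.4% and 39.8% at the strength of lost and of gained sites. The CpG that aligns with matrix positions 5 and 6 was found at 31.5% of lost matches and 16.9% of gained matches. CpGs at other matrix positions were not counted singly. Among unmasked matches alone it was found at 34.97% of lost, 17.7% of gained and 39.0% of kept sites, so the scarcity at gained sites was not confined to repeats. The distance of gained matches from kept matches of like strength in CpG share was -12.5 percentage points, and -7.67 without day 0 replicate 2. DNA methylation was not measured in these files.

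Positions relative to genes were counted next. Annotated start sites of genes of any type lay within 3 kb of 23.5% of lost sites, 29.2% of gained sites and 23.3% of kept sites. Kept sites of like strength gave 30.5% and 24.2%. Introns held 50.1% of lost and 51.8% of gained sites, and exons 10.4% and 11.4%. Day 4 H3K27ac peaks overlapped 11.3% of lost, 15.4% of gained and 11.4% of kept sites, with 16.5% and 11.8% in kept sites of like strength. The promoter and H3K27ac shares of gained sites thus lay above those of kept sites of their strength, and the shares of lost sites lay below, over sites of the same libraries. Without day 0 replicate 1 the H3K27ac share of gained sites was 11.1%.

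Many kept sites changed in relative strength. Fold enrichment was put on a log2 scale, quantile-normalised across the 4 WT lists and tested with limma at every kept site, so that a difference describes a site's rank among kept sites and not the total amount of bound CTCF. At an adjusted p below 0.05, 5067 kept sites (11.1%) were re-ranked up at day 4 and 4947 (10.9%) were re-ranked down. The median differences were 0.88 and -0.89 on the log2 scale, within a range from -2.78 to 2.30 and with a median standard error of 0.235 (n = 2 and 2). With any 1 library left out no site passed the adjusted threshold, while 4172 to 7880 sites were higher and 4699 to 6761 lower at an unadjusted p below 0.05. With all 4 libraries, 8153 were higher and 8189 lower at that threshold.

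The same sites were read in the K20R lists, which the test did not use. Of the sites re-ranked up in WT, 4461 were called in all 4 K20R lists, with a median difference of 0.17 on the log2 scale, and 19.03% of them were re-ranked up and 7.73% down there, against 10.5% and 10.7% of all kept sites tested in K20R. Of the 4424 sites re-ranked down in WT, the K20R median was -0.23, with 21.8% down and 5.99% up. The direction was thus shared more often than not, at a smaller size. Across the 36585 sites in all 8 lists the 2 genotypes' differences had a Pearson r of 0.275 and a Spearman rho of 0.260, given as a description because sites share libraries.

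Kept sites in repeats had lower percentiles at day 4. The 12716 kept sites with a masked match had a median percentile among kept sites of 43.6 and 40.7 in the day 0 WT lists and 34.5 and 34.3 in the day 4 WT lists, a difference of -7.77 points. In the K20R lists they had 38.9 and 39.2 at day 0 and 36.1 and 34.2 at day 4, a difference of -3.93 points. The days did not overlap in either genotype (exact permutation test within genotype, p = 0.0556, the smallest possible). Of these sites 15.1% were re-ranked down and 5.65% up, and under every alternative run the WT difference stayed between -8.40 and -6.29 points.

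Group 2 showed the widest gap of the groups examined. Its 6926 kept sites had a median percentile of 52.2 and 49.1 at day 0 and 39.1 and 38.9 at day 4 in WT cells (-11.6 points), and 45.3 and 44.6 at day 0 and 40.4 and 38.4 at day 4 in K20R cells (-5.60 points, exact permutation p = 0.0556 within genotype). Of them 19.8% were re-ranked down. Group 1 (1793 kept sites) had 21.7 and 16.2 at day 0 and 16.2 and 15.9 at day 4 in WT, and its K20R difference was 2.195 points in the other direction (exact permutation test, p = 0.611). Group 3 differed by -1.75 and -1.29 points in WT and K20R.

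**Figure D4:**
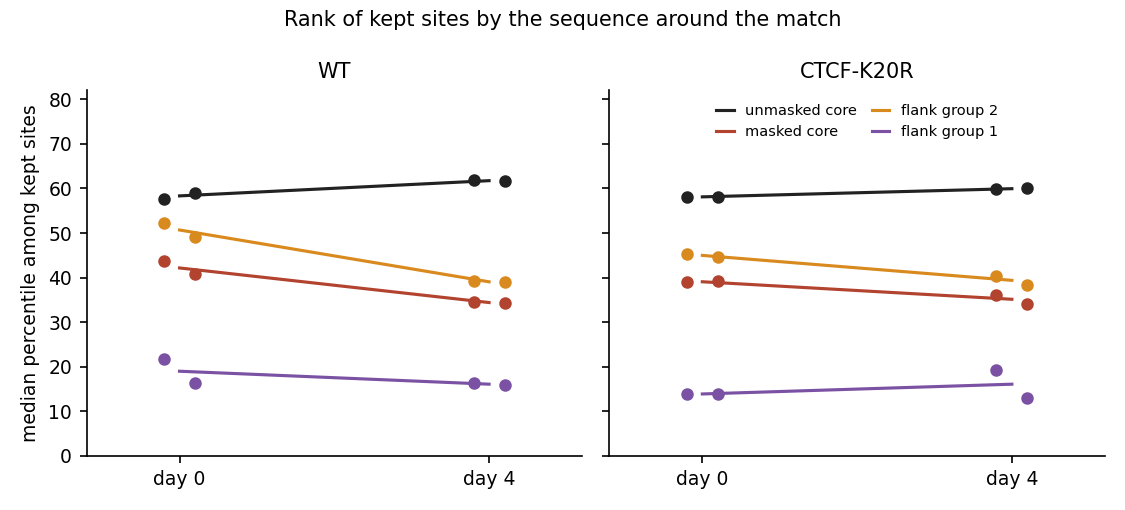
Median percentile among kept sites (y axis) at day 0 and day 4 in WT (left) and CTCF-K20R (right) lists, for unmasked matches, masked matches and flank groups 1 and 2. Each point is 1 library and lines join the means of 2; group 2 has 52.2 and 49.1 at day 0 and 39.1 and 38.9 at day 4 in WT.

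Unmasked matches (27295 kept sites) differed the other way, with 57.6 and 59.1 at day 0 and 61.9 and 61.6 at day 4 in WT (3.42 points) and by 1.84 points in K20R. Unmasked matches without the CpG at positions 5 and 6 differed by 4.79 and 2.15 points in WT and K20R (exact permutation p = 0.0556), and those with it differed by 1.37 and 1.64 points (p = 0.111 in the same test). Among all matches re-ranked down, 42.5% were masked and 49.6% held a CpG, whereas among those re-ranked up 15.6% were masked and 45.3% held a CpG. Percentiles of all kept sites sum to the same total in each list, so a fall of 1 class of sites and a rise of another cannot be told apart.

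The strongest lost site lay in an exon of Npat, a coactivator of histone gene transcription, at chr9:53570603-53571001. It had a fold enrichment of 34.4 and 22.1 in the WT day 0 lists and 27.3 and 21.8 in the K20R day 0 lists, and no peak in any of the 4 day 4 lists. It held no CTCF match. A lost site in an exon of Nrp2, a semaphorin and VEGF co-receptor (chr1:62738100-62738574), had 23.7 and 15.1 in WT and 23.8 and 19.1 in K20R at day 0, again with no day 4 peak. The lost sites in introns of Ddx58, which encodes the RNA sensor RIG-I (21 and 17.2), and of Nrg2, a neuregulin (27.2 and 17.6), were likewise in both K20R day 0 lists and in no K20R day 4 list. These 4 sites changed calls in the same way in both genotypes.

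The other 4 of the 8 strongest lost sites kept K20R peaks at day 4. Near Tmem67, a ciliary transition zone gene, the WT fold enrichment was 26.7 and 18.6, and K20R cells had 39.5 and 42.3 at day 0 and a peak of 10.2 in 1 day 4 list. Within Ttc29 it was 30.6 and 16.4 in WT, with a weaker peak of 6.58 in 1 K20R day 4 list. The masked group 2 sites near Zfp988 (22.4 and 18.3) and Kcnk16 (27.6 and 12.6) were in both K20R day 4 lists, at 11.4 and 20.4 and at 6.93 and 6.62. The Zfp988 locus on chromosome 4 lies in a cluster of zinc finger genes, and whether reads from similar copies bear on its peaks was not tested.

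The strongest gained site lay 25.8 kb from Fcho1, a gene for clathrin-mediated endocytosis, at chr8:71751424-71751660. Its fold enrichment was 25.6 and 16.5 in the WT day 4 lists and 10.2 and 15.1 in the K20R day 4 lists, with no day 0 peak in either genotype. The site near Kcna10, a potassium channel gene, had 17.2 and 15.7 in WT and 4.48 and 10.6 in K20R at day 4, and the site in an intron of Col18a1, which encodes a basement membrane collagen, had 14.2 and 14.6 in WT and 4.55 and 11.6 in K20R. These 3 sites were gained in both genotypes. The site 159.6 kb from Smarca2, a chromatin remodelling ATPase (18.7 and 17.1), had a peak of 5.24 in 1 of 2 K20R day 4 lists. The sites near Syt8, a synaptotagmin (11.96 and 18.8), and Galnt3, a glycosyltransferase (15.95 and 13.7), likewise had a peak in 1 of these lists, of 4.58 and 4.66. A site within Mink1 whose nearest start belongs to 4930544D05Rik (15.4 and 18.2) was in no K20R list. The site near Cfap299 (14.5 and 14.5) overlapped H3K27ac and had 5.78 and 7.77 in K20R at day 4, with a peak of 3.27 in 1 K20R day 0 list.

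Of the 6 kept sites with the lowest p among those re-ranked up, the one 82.5 kb from Tmem132d (chr5:128515289-128515717) had a fold enrichment of 15.99 and 9.48 at day 0 and 45.6 and 52.4 at day 4, a difference of 2.06 on the log2 scale (SE 0.19, limma adjusted p = 0.000365). In K20R lists it was already strong at day 0, with 71.8 and 62.2, and had 57.5 and 91.4 at day 4. The site in an intron of Zfp335, a zinc finger regulator, rose from 9.83 and 5.98 to 34.3 and 30.3 (2.15, SE 0.23, adjusted p = 0.000616), and it had no K20R day 0 peak and 7.40 and 19.8 at K20R day 4. The site near F2rl2, within Iqgap2, rose from 12.7 and 7.70 to 37.6 and 34.7, and that in an intron of Igfbpl1 rose from 20.0 and 11.6 to 46.7 and 49.0. The sites near Fam69b (1.67 on the log2 scale) and the chemokine gene Ccl1 (1.498) overlapped H3K27ac at day 4. None of these 6 matches was masked, and in no case did the day 0 and day 4 WT values overlap, which the choice of sites required.

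Of the sites re-ranked down, 5 are described. The site 0.159 kb from the start of Nyap1, a neuronal adaptor gene, fell from 65.6 and 61.3 to 17.0 and 16.6 (-1.88 on the log2 scale, SE 0.16, limma adjusted p = 0.000288) and overlapped H3K27ac. K20R lists gave 85.6 and 73.9 at day 0 and 52.9 and 96.1 at day 4, so the days overlapped there. The site in an intron of Fam129b fell from 89.2 and 77.9 to 22.5 and 22.9, and the masked site at Cd52, a leukocyte surface antigen gene, fell from 40.9 and 29.9 to 8.44 and 7.57, with 49.4 and 38.9 at day 0 and 15.9 and 26.2 at day 4 in K20R. The sites near the complement gene C1qa (-1.62) and within Prr5 near Arhgap8 (-1.75) also fell.

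Lost sites lay near many genes of the naive pluripotency network, which holds mESCs in the state that 2i and LIF maintain. Of 20 such genes, 14 (70.0%) had a lost site within 50 kb of a start, against 19.9% of all 21911 protein-coding genes, and 13 (65.0%) had a site re-ranked down, against 29.8%. Gained sites lay near 3 (15.0%), against 13.9%, and sites re-ranked up near 7 (35%), against 31.9%, both close to the share of all protein-coding genes. These genes lie in regions dense in CTCF sites, so shares of sites were counted too. Of 216 sites within 50 kb of the 20 genes, 21 (9.72%) were lost and 4 (1.85%) gained, against 3.49% and 2.33% near all protein-coding genes, and of their 107 kept sites 21 (19.6%) were re-ranked down and 11 (10.3%) up, against 10.9% and 11.3%. The gene share lay 50.1 percentage points above that of all protein-coding genes. With WT lists of equal length the count near a lost site was 7 of 20, which was 17.5 points above, and without day 0 replicate 2 it was 19, which was 34.3 points above.

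**Figure D5:**
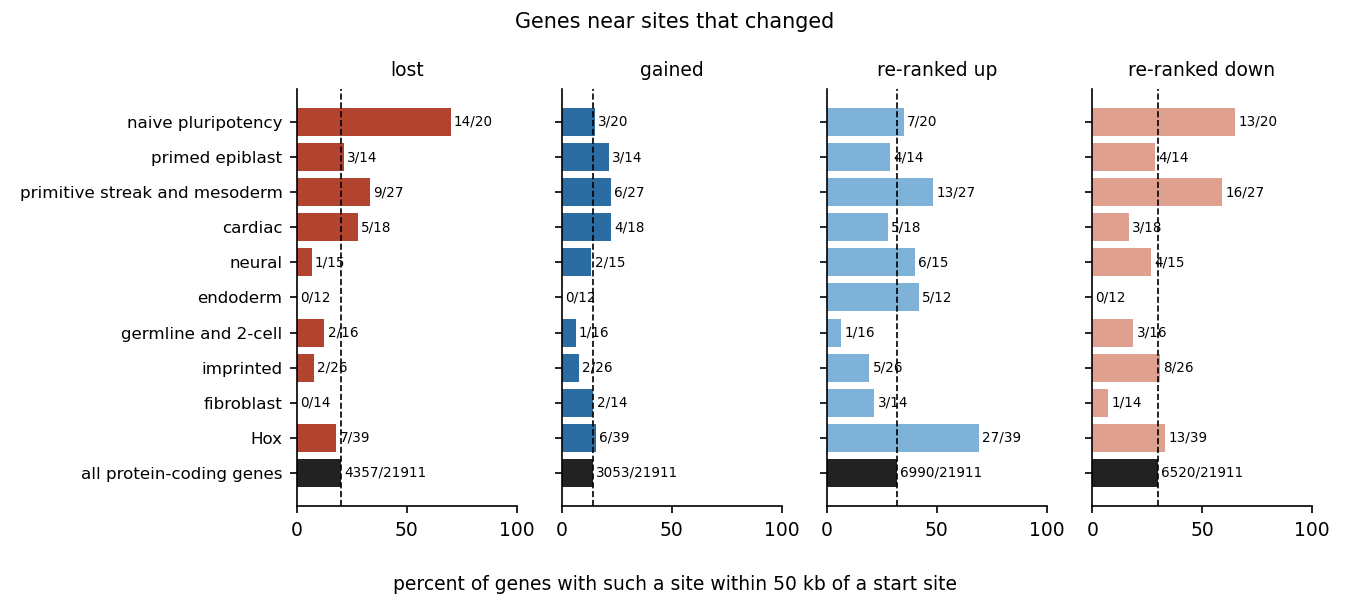
Percent of the genes of each list (x axis) with a lost, gained, re-ranked up or re-ranked down site within 50 kb of a start, with the counts beside the bars. Dashed lines mark all protein-coding genes; naive pluripotency genes reach 70.0% for lost sites, where the line is at 19.9%.

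The 21 lost sites near naive genes were weak in WT cells, and 13 of them were also called in at least 1 K20R day 0 list. Only 1 was called at K20R day 4, and 8 sites at 8 genes (Dppa3, Dppa5a, Esrrb, Klf2, Klf5, Prdm14, Sox2 and Zfp42) were lost by the same rule in K20R. Of the 21 sites, 15 held a CTCF match, and 13 of these 15 had it in masked bases. The orphan nuclear receptor gene Esrrb had 3 lost sites in its introns, with fold enrichments of 9.78 and 5.73, 8.39 and 6.78, and 8.95 and 5.36 at day 0. The first is the group 1 copy shown above, was called at 10.5 and 14.5 in the K20R day 0 lists, and had no K20R day 4 peak.

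Prdm14, a repressor that keeps cells in the naive state, had a lost site 47.5 kb away with 15.2 and 8.49 in WT and 9.91 and 11.5 in K20R at day 0. Sox2, the pluripotency and neural factor, had lost sites at 14.0 kb (5.65 and 6.03) and at 37.8 kb (13.7 and 4.93), the latter in both K20R day 0 lists at 6.75 and 6.74. Dppa3, an oocyte and pluripotency gene, had a lost site without a match at 10.4 and 7.44, and Dppa5a one at 6.24 and 3.74. The Krüppel-like factor genes Klf2 (7.65 and 4.52) and Klf5 (6.63 and 7.14) and the naive marker Zfp42 (3.92 and 6.13) had 1 lost site each. Each of these values lay below the kept median of its own list, which was 22.4 in day 0 replicate 1 and 13.0 in replicate 2.

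Pou5f1, which encodes OCT4, had 3 lost sites in group 1 copies on the side of the major histocompatibility genes. The strongest, at chr17:35496226-35496881 and 9.65 kb from the start, had 13.2 and 8.58 in WT and 15.3 and 17.98 in K20R at day 0 and 6.46 in 1 K20R day 4 list. The other two, 1 of them within H2-Q10, were in no K20R list. A kept site 28.5 kb from Pou5f1 (chr17:35534262-35534728) fell from 55.8 and 35.2 to 15.7 and 20.2 (-1.31 on the log2 scale, SE 0.19, limma adjusted p = 0.00113), and K20R lists gave 90.4 and 93.0 at day 0 and 48.5 and 71.2 at day 4. Sall4, Stat3, Lifr, Nanog and Fgf4 had lost sites of low strength as well, of which only the Nanog site, at 4.03 and 4.24, was called in K20R cells, in 1 day 0 list.

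Re-ranked kept sites near naive genes went in both directions. Near Nanog, a core pluripotency factor, the site 12.6 kb away (chr6:122719884-122720312) rose from 17.6 and 10.1 to 31.2 and 36.4 (1.37 on the log2 scale, SE 0.20, limma adjusted p = 0.00118). Near Klf4, 2.04 kb from its start, a site rose from 6.81 and 6.75 to 28.9 and 25.8 (2.01, SE 0.27, adjusted p = 0.000935), with 16.3 and 14.5 at day 0 and 11.96 and 31.4 at day 4 in K20R. The group 2 site 49.3 kb from Socs3, a feedback inhibitor of LIF signalling, fell from 47.2 and 32.1 to 14.2 and 15.6 (-1.35, SE 0.18, adjusted p = 0.000916). K20R lists gave 43.2 and 37.2 at day 0 and 29.6 and 42.8 at day 4 there, which overlap. Klf4 has no lost or gained site near it and was chosen after its values were seen.

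Among 27 primitive streak and mesoderm genes, 9 (33.3%) had a lost site, 6 (22.2%) a gained site, 13 (48.1%) a site re-ranked up and 16 (59.3%) a site re-ranked down, against 19.9%, 13.9%, 31.9% and 29.8% of all protein-coding genes. Of 233 sites near them, 4.29% were lost and 3.43% gained, against 3.49% and 2.33% near all protein-coding genes, and of the kept ones 14.6% were re-ranked up and 16.2% down, against 11.3% and 10.9%. Eomes, a T-box gene of the streak, had a lost site 19.8 kb away with 13.4 and 7.31 in WT and 7.17 and 4.40 in K20R at day 0 and no day 4 peak in either genotype. Nodal, the TGF-beta ligand that patterns the streak, had a lost group 1 copy in its intron at day 0, which was in 1 K20R day 0 list. The other genes of the list near lost sites were Cdx2, Lefty1, Lefty2, Mixl1, Snai1, Tbx6 and Wnt3, and none of their sites was lost in K20R by the same rule.

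Foxf1 and Foxc2, forkhead genes of the lateral and paraxial mesoderm, share a locus on chromosome 8. A gained site 6.55 kb from Foxf1 (chr8:121090807-121091126) had 14.2 and 10.8 in WT and 6.26 and 5.24 in K20R at day 4, with no day 0 peak. Another gained site 0.062 kb from the Foxc2 start had 5.70 and 7.30 in WT and 5.69 in 1 K20R day 4 list. Tbx6, a regulator of presomitic mesoderm, had a gained site within Aldoa and Fam57b at 10.8 and 7.97 in WT and 6.26 and 8.15 in K20R, which overlapped H3K27ac and held no match. Wnt3, a streak-inducing ligand, had a gained site 1.48 kb from its start at 5.53 and 5.53 that overlapped H3K27ac and was in no K20R list. T and Cdx2 also had gained sites, at 45.2 kb and at 25.5 and 29.0 kb, in no K20R list.

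Kept sites near these genes were re-ranked in both directions. The site 0.97 kb from Mesp1, a master regulator of cardiac mesoderm, fell from 40.1 and 33.2 to 14.6 and 13.9 (-1.30 on the log2 scale, SE 0.19, limma adjusted p = 0.00120), and K20R lists gave 75.5 and 74.8 at day 0 and 27.2 and 42.9 at day 4. The site near Foxa2, 35.5 kb from its start, rose from 28.2 and 16.1 to 44.6 and 48.1 (1.13, SE 0.17, adjusted p = 0.00120), with 39.6 and 31.9 at day 0 and 51.2 and 94.4 at day 4 in K20R. The site near Foxc1 fell from 43.2 and 32.2 to 15.9 and 16.3, and K20R lists gave 61.6 and 51.6 at day 0 and 38.6 and 63.7 at day 4. The site 9.69 kb from Snai1, a regulator of epithelial to mesenchymal transition, rose from 15.6 and 9.40 to 28.9 and 34.2. Mesp1, Foxa2 and Foxc1 were chosen after their values were seen.

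The other lists rested on few sites and are read against 19.9% of all protein-coding genes near a lost site and 13.9% near a gained site. Of 14 genes of the primed epiblast, 3 (21.4%) had lost sites (Cldn6, Dnmt3b and Sall2) and 3 (21.4%) had gained sites (Dnmt3a, Dnmt3l and Fgf5). The lost copy near Dnmt3b, a de novo DNA methyltransferase, was in both K20R day 0 lists and in no K20R day 4 list. Of 18 cardiac genes 5 (27.8%) had lost sites (Hand2, Myh7, Nkx2-5, Ryr2 and Smarcd3) and 4 (22.2%) had gained sites (Actc1, Nppa, Smarcd3 and Tnnt2), and none of these sites made the same change in K20R cells. Of 15 neural genes Sox11 (6.67%) had a lost site and Nes and Pax6 (13.3%) had gained sites, the Pax6 site being in an exon 0.554 kb from a start. None of the 12 endoderm genes had a lost or gained site, and 5 (41.7%) had a site re-ranked up, against 31.9% of all protein-coding genes.

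Of 16 germline and 2-cell genes 2 (12.5%) had lost sites (Stra8 and Sycp3) and 1 (6.25%) had a gained site (Asz1). Of 26 imprinted genes 2 (7.69%) had lost sites (Impact and Inpp5f) and 2 (7.69%) had gained sites (Meg3 and Rtl1), and the 2 gained sites were each called in at least 1 K20R day 4 list. None of 14 fibroblast genes, listed because feeders were present at day 0, had a lost site, and 2 (14.3%, S100a4 and Thy1) had gained sites. Only 68 sites lay near these 14 genes, and 3.49% of sites near all protein-coding genes were lost, so the count is too small to read. The part of feeder chromatin in the lost calls was not tested. Of 39 Hox genes, 7 (17.9%) in the Hoxb cluster lay near the same lost site and 6 (15.4%) near 2 gained sites. Re-ranked up sites lay near 27 of them (69.2%, against 31.9%), and over 42 kept sites near Hox genes 8 (19.05%, against 11.3%) were re-ranked up. Neighbouring genes share sites, so the counts of genes exceed the counts of sites. Of the 68 protocadherin genes, 48 (70.6%, against 31.9% of all protein-coding genes) had a re-ranked up site nearby and 38 (55.9%, against 29.8%) a re-ranked down site. These were 16 (14.8%) and 7 (6.48%) of 108 kept sites, against 11.3% and 10.9% near all protein-coding genes.

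Lost and gained sites were spread over the genome. Of 2562 windows of 1 Mb with a CTCF site, the median held 1 lost and 0 gained sites. The most lost sites, 13, were in the window from 116 to 117 Mb of chromosome 11, which holds 36 protein-coding genes including Srsf2, Foxj1 and Itgb4 and 126 sites in all. Windows on chromosome 5 from 144 to 145 Mb (12 lost sites, around Trrap and Smurf1) and from 139 to 140 Mb (10, around Mafk and Uncx), on chromosome 2 from 165 to 166 Mb (10, around Zmynd8 and Ncoa3) and on chromosome 4 from 149 to 150 Mb (10, around Kif1b and Ube4b) followed. The most gained sites, 8, lay from 24 to 25 Mb of chromosome 17 (Tsc2 and Pkd1), followed by 7 from 19 to 20 Mb of chromosome 7 (Apoe and Relb) and by 6 each from 131 to 132 Mb of chromosome 7 (Fgfr2), from 24 to 25 Mb of chromosome 14 (Kcnma1) and from 45 to 46 Mb of chromosome 4 (Igfbpl1). The 5 windows richest in lost sites held 126, 95, 94, 91 and 98 sites in all, in the order given, with 48 to 60 kept sites each. Those richest in gained sites held 95, 157, 50, 52 and 66 sites in all. Over the genome 3.45% of sites were lost and 2.48% were gained. The windows were picked for their counts, so higher shares there follow in part from the choice.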

How the data were processed

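CTCF chromatin immunoprecipitation sequencing was read from the peak lists that the authors deposited for 4 WT and 4 CTCF-K20R libraries, with the WT day 4 H3K27ac list. The authors trimmed reads with Trim Galore, mapped them to mm10 through Bowtie2, discarded duplicates, poorly mapping reads and blacklisted regions, drew the same number of reads from each CTCF library, and called peaks per library with MACS2 (broad peaks for H3K27ac). Tool names also stand in the submitters' processing notes, and which input library was set against each ChIP library is not given in the sources used here. Each deposited list gives per peak a fold enrichment, which is a ratio to local background, and −log10 p-value and −log10 q-value columns. Read counts are not part of the deposited lists, so depth per site is unknown and the authors' test on reads was not run. Authors' comparisons were not used.

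From these values, sites were merged from peaks overlapping by at least 1 bp, and quantile-normalised log2 fold enrichment at kept sites was tested with limma 3.58.1 (trended empirical Bayes, Benjamini-Hochberg adjusted p below 0.05) in R 4.3.3, after a test of the code on simulated data. For single values, exact permutation tests over libraries were run, all two-sided. Sequence, motif and masking came from RefSeq GRCm38.p6 and gene starts from GENCODE M21, through Python 3.11.15, scipy 1.17.1 and scikit-learn 1.9.0, with seeded random states. Labels of the samples gave the groups and the replicate numbers. The day 0 and day 4 deviations of same-numbered WT libraries correlated at 0.0206 over kept sites with 2 pairs, so the numbers were not taken to pair the libraries.

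The sites, gene lists and tests were chosen with earlier results of these data known. Named were the 8 lost and 8 gained sites of highest mean percentile, the 6 kept sites of lowest p in each direction whose days did not overlap, the nearest gene to each, every listed gene with a lost or gained site within 50 kb, and the 5 windows of 1 Mb with the most lost and the 5 with the most gained sites, of which 1 re-ranked site is not reported here. Alternatives were a −log10 q-value of at least 5, WT lists of equal length, windows around summits, each library left out, autosomes only, the replicate number as a block, other scales of strength, and stricter motif, promoter and H3K27ac limits. Masked matches, flank groups, strength-matched shares and the genotype comparison were added after the data were seen.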

Additional observations from a re-analysis of the deposited data

Results flagged for a closer look

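The difference between day 4 and day 0 was itself compared between genotypes at the 36585 kept sites called in all 8 lists, with limma on quantile-normalised log2 fold enrichment and a genotype by day term. At 6070 sites (16.6%) it differed between WT and K20R at an adjusted p below 0.05, and at 11397 at an unadjusted p below 0.05. Of the 6070, the fitted difference was above 0 in WT and below 0 in K20R at 2388, and the reverse at 2185. These counts use the sign alone, with no test within a genotype. They include sites with little K20R difference, such as the Nyap1 site (-2.18 in WT and 0.05 in K20R). Among sites re-ranked up or down in WT, 49.2% and 42.7% differed, but these were chosen for a large WT difference, which favours such calls. Whether genotype, clone or library made these differences cannot be told apart, since each genotype and day has 2 libraries of 1 line.

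All values that follow are the WT difference minus the K20R difference on the log2 scale, at sites past the adjusted threshold of that test. Among the 6 sites re-ranked up in WT with the lowest p, the value was 2.15 near Tmem132d, 1.80 near F2rl2, 1.65 near Igfbpl1, 1.27 near Fam69b and 0.99 near Ccl1. At Tmem132d, F2rl2 and Igfbpl1 the K20R day 0 fold enrichments were already at or near the level WT cells had at day 4. Among those re-ranked down, it was -2.23 near Nyap1, -2.16 near C1qa, -2.04 near Arhgap8, -1.76 near Cd52 and -1.67 near Fam129b.

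Near the listed pluripotency genes, the value was 1.78 at the Klf4 site and 1.39 at the Nanog site, which rose in WT, and -1.70 at the Socs3 site and -1.17 at the Pou5f1 site, which fell. Near mesoderm genes it was 1.34 at the Snai1 site, -1.45 at the Foxc1 site and -0.78 at the Mesp1 site. The value was 0.24 at the Foxa2 site, which did not pass this test (adjusted p = 0.511).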

How the results depend on the processing

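Of 169 values recomputed under an alternative, 118 counted as the same, 48 moved and 3 reversed, and the cause was not tested. Counts, shares and distances were the same when they stayed within set limits of size. For values with an exact permutation test only the sign was in effect compared, since p could not fall below 0.05. The peak number difference of -16395 without WT day 0 replicate 2 thus counted as the same as -3915.5. Leaving out each library in turn gave day 4 minus day 0 peak numbers from -16395 to 8564 (reversed without WT day 0 replicate 1), 3905 to 17550 lost sites, 2293 to 9572 gained sites, no re-ranked site in either direction (0), K20R calls at lost sites changed by -39.4 to -13.2 percentage points and at gained sites by -5.77 to 9.14 (reversed without WT day 0 replicate 1 and, at -0.119, without K20R day 4 replicate 2). Under the same omissions the lost sites had a motif share of 58.4% to 69.1%, a CpG share of 34.8% to 45.6%, a promoter share of 21.3% to 30.7% and a masked share of 58.9% to 73.7%. The gained sites had an H3K27ac share of 11.1% to 16.6% and a masked share of 25.7% to 45.6%, and 14 to 19 naive genes lay near a lost site. The distance from kept sites of like strength was 15.5 to 33.6 points for the masked share of lost sites and 12.9 to 31.2 points for their group 1 share. A group left with 1 library was assumed to vary like the other group.

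With WT lists of equal length, the motif share of lost sites was 74.9%, their CpG share 39.7%, their promoter share 19.8% and their masked share 66.6%, the masked and H3K27ac shares of gained sites were 32.3% and 11.7%, and 7 naive genes lay near a lost site, 17.5 points above the share of all protein-coding genes. With a −log10 q-value of at least 5 the motif and promoter shares of lost sites were 70.8% and 21.5%. The strict motif threshold gave a motif share of 27.5% and a CpG share of 49.9%, a promoter distance of 1 kb gave 11.9%, windows around summits gave an H3K27ac share of 17.1%, and H3K27ac peaks with a −log10 q-value of at least 5 gave 9.50%. Sites re-ranked up and down numbered 3145 and 3170 on the percentile scale and 1946 and 2254 on the −log10 p-value scale. With the replicate number as a block they numbered 6221 and 6046, and the peak number difference was unchanged. The 2 pairs of libraries share only a number, so the block is not taken as a pairing.

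The lists give no read counts, so a weak peak lost or gained cannot be told apart from a small change around the caller's threshold. With 2 libraries a day no single-value test can go below 0.333, or 0.0556 over both genotypes.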

Other observations

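Kept sites on chromosome X had low percentiles, higher at day 4 than at day 0 in both genotypes. The 1047 kept sites there had a median percentile among kept sites of 31.2 and 30.4 at day 0 and 33.5 and 34.3 at day 4 in WT (3.02 points), and their K20R difference was 5.19 points (exact permutation test within genotype, p = 0.0556, the smallest possible). Of them 4.20% were re-ranked up and 2.87% down, against 11.3% and 11.1% on autosomes. E14Tg2A is a male line with 1 chromosome X.

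Gene families were taken by symbol. Of 118 kept sites within 50 kb of 113 keratin-named genes, 25 (21.2%) were re-ranked up and 6 (5.08%) down. Of 163 near 52 collagen-named genes, 30 (18.4%) were re-ranked up and 12 (7.36%) down, with 11.3% and 10.9% near all protein-coding genes. Olfactory receptor genes, 1134 in number, lay near few sites, with 43 (3.79%) near a lost site and 29 (2.56%) near a gained site. Of 397 genes named Zfp, 93 (23.4%) lay near a lost and 42 (10.6%) near a gained site, against 19.9% and 13.9% of all. Histone genes clustered on few sites, and 17 of 67 (25.4%, against 13.9% of all protein-coding genes) lay near 4 gained sites. These were 4.94% of 81 sites, against 2.33% near all protein-coding genes. Near a lost site lay 2 of the 67 (2.99%, against 19.9%).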
